A study of Schizosaccharomyces pombe with 16 samples.

Results

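The genes described here are 8 of the 7022 annotated features counted in fission yeast (Schizosaccharomyces pombe) strains with altered RNA polymerase II. They were chosen by name, as genes repressed by thiamine (vitamin B1) or as regulators of that repression. The rule that names them uses no measured value, but it was set with earlier results of these data known. By role they are 3 biosynthesis genes (nmt1, SPCC1223.02; nmt2, SPBC26H8.01; thi4, SPAC23H4.10c), the regulator and kinase gene tnr3 (SPAC6F12.05c), the transporter genes thi9 (SPAC9.10) and bsu1 (SPAC17A2.01), the phosphatase gene pho4 (SPBC428.03c) and the transcription factor gene thi1 (SPAC1486.10). Polyadenylated RNA was sequenced strand by strand from cultures grown in YES, a rich medium of yeast extract with supplements. The strains differed in the CTD, the tail of repeated heptads at the carboxy terminus of Rpb1, which is the largest subunit of the polymerase. The 7 mutants were Y1F (tyrosine to phenylalanine at the first heptad position), S2A (serine to alanine), T4A (threonine to alanine), S7A (serine to alanine), and the doubles Y1F-S7A, S2A-S7A and T4A-S7A, and the comparison strain was WT, labelled rpb1CTD-WT 1-18. Each of the 8 strains gave 2 biological replicates, 16 libraries in all. All strains carried ade6, ura4-D18 and leu1-32. S2A was h+ and the other strains h-, so mating type and substitution cannot be told apart where S2A is compared with WT, S7A or S2A-S7A.

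Thiamine diphosphate is the cofactor of pyruvate decarboxylase, transketolase and related enzymes. Fission yeast makes thiamine by joining a pyrimidine and a thiazole moiety, and it shuts the genes for this synthesis when thiamine is present in the medium, as it is in yeast extract. The name nmt stands for no message in thiamine, and the nmt1 promoter is widely used as a switch for experimental expression. The zinc finger factor Thi1 activates these genes when thiamine is scarce, while loss of Tnr3, thiamine pyrophosphokinase, leaves them on in the presence of thiamine.

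The sequences in front of 5 of the genes are given because 3 of them changed in at least 1 mutant (nmt1, thi9 and tnr3), while nmt2 and pho4 share a TATA element with nmt1 at nearly the same place. Each is the 250 bases before the RefSeq gene start in assembly ASM294v3, written 5′ to 3′ on the strand of the gene, with matches to TATAAA or TATATAAA in capitals.
nmt1 (chrIII:1838165-1838414, plus strand): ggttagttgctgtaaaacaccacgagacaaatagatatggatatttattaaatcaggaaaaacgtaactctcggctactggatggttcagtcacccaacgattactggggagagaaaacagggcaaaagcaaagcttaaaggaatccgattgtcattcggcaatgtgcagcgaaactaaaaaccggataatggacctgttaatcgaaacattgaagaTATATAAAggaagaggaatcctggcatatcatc
nmt2 (chrII:3940276-3940525, plus strand): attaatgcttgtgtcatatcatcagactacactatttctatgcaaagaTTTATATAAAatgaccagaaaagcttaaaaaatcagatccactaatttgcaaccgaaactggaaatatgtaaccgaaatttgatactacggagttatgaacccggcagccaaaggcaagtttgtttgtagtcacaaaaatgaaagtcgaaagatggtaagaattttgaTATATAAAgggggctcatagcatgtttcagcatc
pho4 (chrII:447029-447278, minus strand): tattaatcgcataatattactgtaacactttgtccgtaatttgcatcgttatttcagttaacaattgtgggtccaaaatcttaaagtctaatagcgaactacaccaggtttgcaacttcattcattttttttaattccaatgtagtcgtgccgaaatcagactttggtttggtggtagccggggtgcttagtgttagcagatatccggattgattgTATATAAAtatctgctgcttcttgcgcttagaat
thi9 (chrI:1482169-1482418, plus strand): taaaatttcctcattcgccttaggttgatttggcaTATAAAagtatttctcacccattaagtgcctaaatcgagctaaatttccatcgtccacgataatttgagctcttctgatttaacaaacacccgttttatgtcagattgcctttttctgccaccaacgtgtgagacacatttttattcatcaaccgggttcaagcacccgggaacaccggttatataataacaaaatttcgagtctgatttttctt
tnr3 (chrI:1318979-1319228, minus strand): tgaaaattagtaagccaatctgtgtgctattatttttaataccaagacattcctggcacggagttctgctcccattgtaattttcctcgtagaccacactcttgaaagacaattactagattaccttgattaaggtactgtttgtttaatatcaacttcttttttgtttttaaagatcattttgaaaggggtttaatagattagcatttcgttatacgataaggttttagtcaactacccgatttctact

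On the sense strand TATATAAA began 33 bases before the start of nmt1, 34 before nmt2 and 34 before pho4. In nmt2 it occurred a second time, 200 bases before the start, where a match on the other strand overlaps it and lengthens the capitals. The shorter motif TATAAA, which TATATAAA contains, began 35 bases before the start of thi4 and 215 bases before that of thi9. In thi4 it also began 196 bases before the start, where a match on the other strand overlaps it. Neither motif was found in the windows of tnr3, bsu1 and thi1. Over the windows from 250 bases before to 50 bases after the start of 5112 protein-coding genes, and counting both strands, 48.1% held TATAAA and 7.67% held TATATAAA. A TATATAAA on the sense strand that began 25 to 40 bases before the start was found in 53 of them, or 1.04%, a range set after the matches in the 8 genes had been seen. A match describes these letters and is not a measured binding site.

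Depth ran from 18677921 to 31254978 reads per library. As a check of the genotype that all strains share, ura4, deleted in ura4-D18, had 0 reads in all 16 libraries. The gene rpb1, whose coding sequence was altered but not removed, had 199 to 368 CPM. Neither gene can tell the strains apart. The M-cell pheromone gene mfm2, a marker of h- cells, had 0.921 and 1.58 CPM in S2A, against 24.5 and 35.8 CPM in WT. The h- markers mfm1, mam1 and mam2 and the h+ markers map2 and map3 did not set S2A apart from every other strain. For example, mfm1 had 0.0682 and 0.271 CPM in S2A and 0.594 and 0.258 CPM in WT. The level of map2 was 8.7 and 8.17 CPM in S2A but 10.3 and 11.1 CPM in S2A-S7A. CPM is a library's read count for a feature divided by its depth, here with TMM scaling. The feature used for counting nmt1 spans chrIII:1838335-1839525 on the plus strand, 80 bases longer at the 5′ end and 139 bases shorter at the 3′ end than the RefSeq gene. For the other 7 genes the counted feature reached 50 to 1494 bases beyond the RefSeq 5′ end, with 1494 bases for tnr3, 1184 for nmt2 and 1018 for thi9, so that reads from neighbouring transcripts on the same strand may be included. RefSeq names nmt2 thi2.

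Of the 8 genes, nmt1 was the one that moved most. It was called higher than WT in 5 mutants, by 4.03-fold to 16.4-fold, and tnr3 and thi9 changed by less than 2-fold in some strains. The genes nmt2, thi4, bsu1, pho4 and thi1 passed the main test in no comparison of a mutant with WT. In an alternative fit with the replicate number as a block, bsu1 passed in S2A-S7A and thi1 in S2A and S2A-S7A. In that fit nmt1 and thi9 also passed in S7A. A gene was called where edgeR's quasi-likelihood test, with Benjamini-Hochberg adjustment over all 6420 tested features, gave an adjusted p under 0.05, and all 8 genes were among those tested. The comparisons with WT share the same pair of WT libraries and are not independent of each other.

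**Figure D1:**
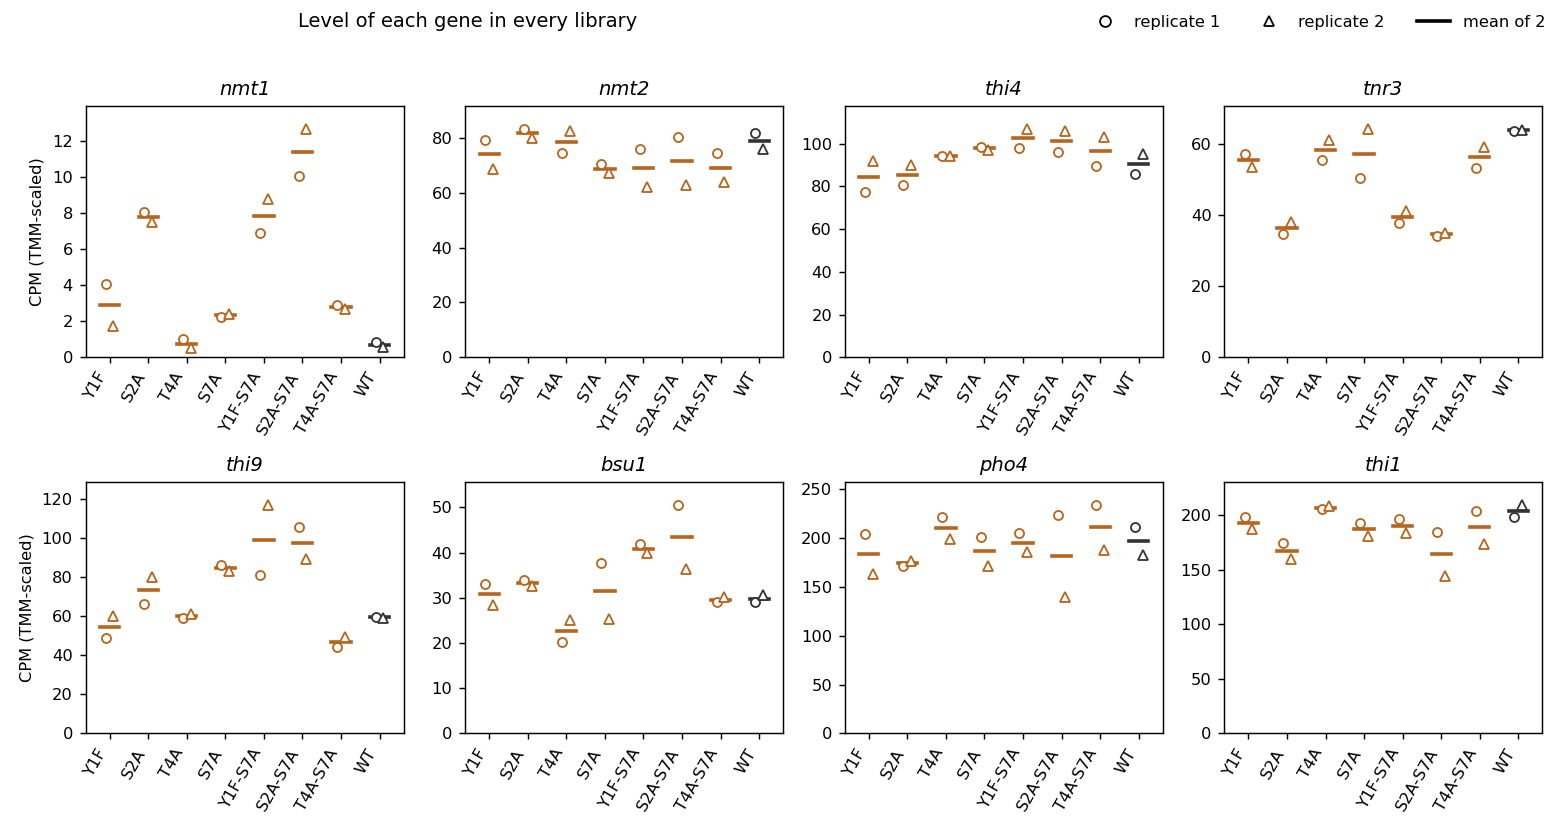
Level of each of the 8 genes in CPM (y axis, from 0) in the 7 mutants (brown) and WT (black), with replicate 1 as a circle, replicate 2 as a triangle and the mean of both as a bar. The nmt1 panel runs from 0.513 CPM in T4A to 12.7 CPM in S2A-S7A, while nmt2 stays between 62.0 and 83.4 CPM.

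In Y1F 1 of the 8 genes was called against WT, where 2.96% of all tested features were called, and it was higher, as were 1.29% of features. In S2A 2 of the 8 were called (11.9% of features), of which 1 rose (7.17%) and 1 fell (4.72%). In Y1F-S7A 3 were called (7.21%), of which 2 rose (3.74%) and 1 fell (3.47%). In S2A-S7A 3 were called (16.5%), of which 2 rose (8.49%) and 1 fell (8.04%). In T4A-S7A 1 was called (2.79%), and it rose (1.11%). In T4A none was called (0.0935%), and none had an unadjusted p under 0.05 or was called with DESeq2. In S7A none was called (1.71%), 2 had an unadjusted p under 0.05 and DESeq2 called 1. The median log2 fold change over the 8 genes lay between -0.09 in Y1F and 0.08 in Y1F-S7A, against -0.01 to 0.01 over all features. A joint test for any difference among the 8 strains called nmt1 (adjusted p = 0.00016), tnr3 (0.0018) and thi9 (0.004), where 22.3% of all features were called. With the replicate number as a block it also called bsu1 (adjusted p = 0.009) and thi4 (0.049).

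The gene nmt1 encodes the enzyme that makes the pyrimidine moiety of thiamine. It was scarce in WT, with 18 and 13 reads or 0.823 and 0.559 CPM. In S2A-S7A it had 10.1 and 12.7 CPM, in Y1F-S7A 6.93 and 8.78 CPM and in S2A 8.05 and 7.54 CPM. Both libraries of each of these 3 strains lay far above both of WT. Log2 fold changes over WT were 4.04 ± 0.44 (SE) in S2A-S7A (adjusted p = 0.00017), 3.50 ± 0.44 in Y1F-S7A (0.0011) and 3.49 ± 0.43 in S2A (0.00029), and each of the 3 stayed called with any 1 of its 4 libraries left out. S2A-S7A, the strain with the highest level, is h- like WT, while S2A is h+. In S2A mating type and substitution cannot be told apart.

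Smaller rises of nmt1 were measured in Y1F, with 4.06 and 1.74 CPM, and in T4A-S7A, with 2.88 and 2.69 CPM. These libraries were all above those of WT, but the replicates of Y1F were 2.9 ± 1.64 CPM (mean ± SD, n = 2) and their range held that of T4A-S7A. Y1F was 4.17-fold above WT (adjusted p = 0.028) and T4A-S7A 4.03-fold (adjusted p = 0.03), each with an SE of 0.43 on the log2 scale. Without Y1F replicate 1 the log2 fold change in Y1F was 1.33 and the call was lost (adjusted p = 0.21), as it was on leaving out either WT library (0.095 and 0.23). The call in T4A-S7A was lost with each of its 4 libraries left out, at an adjusted p of 0.12 to 0.21.

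In S7A nmt1 had 2.24 and 2.4 CPM, above both WT libraries, at a log2 fold change of 1.74 ± 0.44 with an adjusted p of 0.077. With the replicate block this adjusted p was 0.023, and with DESeq2 0.0054. In T4A it had 0.988 and 0.513 CPM, which overlap WT, and the log2 fold change of 0.16 had a 95% interval of -0.85 to 1.17. From highest to lowest mean, the order was S2A-S7A, Y1F-S7A, S2A, Y1F, T4A-S7A, S7A, T4A and WT. In that order the libraries of Y1F-S7A and S2A overlapped, as did those of Y1F and T4A-S7A, and those of T4A and WT.

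Set against S7A, nmt1 rose when Y1F or S2A was added. It was 2.29 ± 0.39 log2 units higher in S2A-S7A than in S7A (adjusted p = 0.0028), a call kept with any 1 library left out. In Y1F-S7A it was 1.76 ± 0.39 higher than in S7A (0.023), lost with each of the 4 libraries left out at an adjusted p of 0.067 to 0.16. In S2A-S7A over S7A 2 of the 8 genes were called (14.1% of all features), nmt1 higher (7.62%) and tnr3 lower (6.5%). The same 2 genes were called in Y1F-S7A over S7A (5.06% of all features, 2.4% higher and 2.66% lower). In T4A-S7A over S7A nmt1 differed by 0.27 on the log2 scale with an adjusted p of 0.88.

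Adding S7A to another substitution gave no call of any of the 8 genes. The share of all features called was 0.0156% in Y1F-S7A over Y1F, 0.483% in S2A-S7A over S2A and 0.187% in T4A-S7A over T4A. At an unadjusted p under 0.05 there were 4, 1 and 1 of the 8 genes, and DESeq2 called 2, 0 and 1, in the same order. For nmt1 the log2 fold change was 1.44 ± 0.38 in Y1F-S7A over Y1F (adjusted p = 0.3), with both libraries of the double mutant higher. This value was 2.17 without Y1F replicate 1 and 0.95 without Y1F replicate 2, and DESeq2 gave it an adjusted p of 0.024. It was 1.85 ± 0.42 in T4A-S7A over T4A (adjusted p = 0.14, 0.033 with the replicate block) and 0.54 ± 0.37 in S2A-S7A over S2A (0.61). Whether S7A acted differently on nmt1 in another mutant than in WT was tested as an interaction, which is the difference of the 2 log2 fold changes. It was -1.20 in S2A (95% interval -2.44 to 0.04, adjusted p = 0.58), -0.31 in Y1F (-1.55 to 0.94) and 0.11 in T4A (-1.23 to 1.45). No interaction was called for any of the 8 genes by edgeR, with or without the block, or by DESeq2; the shares of all features called were 0.483%, 0% and 0.0156%, and 1 of the 8 genes, thi9 with T4A, had an unadjusted p under 0.05.

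The nmt1 feature is overlapped over all of its 1191 bases by SPNCRNA.1234, a non-coding RNA on the opposite strand, and 52 bases downstream on its own strand lies the non-coding SPNCRNA.504. SPNCRNA.1234 had 16.5 and 12.5 CPM in S2A-S7A, against 24.4 and 23.4 CPM in WT, so it was lower where nmt1 was highest. In Y1F, where nmt1 had 4.06 and 1.74 CPM, SPNCRNA.1234 was also below WT, at 19.1 and 12.8 CPM. It had 18.6 and 16.3 CPM in Y1F-S7A. Its log2 fold change was -0.72 ± 0.22 in S2A-S7A (adjusted p = 0.04, lost on leaving out either WT library or S2A-S7A replicate 2, at up to 0.21) and -0.70 ± 0.22 in S2A (0.057). SPNCRNA.504 was below both WT libraries in all 7 mutants, also in T4A, where nmt1 was near its WT level, and the falls in S2A and S2A-S7A were called. It had 1.23 and 0.542 CPM in S2A and 1.31 and 0.791 CPM in S2A-S7A, with 1.57 and 0.821 CPM in T4A, against 3.29 and 2.79 CPM in WT. Its log2 fold change was -1.75 ± 0.48 in S2A (adjusted p = 0.034, lost on leaving out either WT library or S2A replicate 2, at up to 0.21, and -2.48 without S2A replicate 1) and -1.52 ± 0.48 in S2A-S7A (0.049, lost with each of its 4 libraries left out, at 0.075 to 0.22). The next gene upstream, hel2, was not called in any mutant against WT. Around all 8 genes, 22 features lie next to or overlap them, of which 19 were tested, and SPNCRNA.1234 and SPNCRNA.504 were the 2 called in a mutant against WT. Their calls were in S2A and S2A-S7A, where 11.9% and 16.5% of all tested features were called. The libraries keep strand, but the sources used here do not say whether counting used it. The gene cdb4, which lies within the thi4 feature on the opposite strand, had 13816 reads in WT replicate 1, against 1882 for thi4. Reads of cdb4 were thus not all counted for thi4 as well. The same was not tested at nmt1. Where strand is not used, reads of a gene and of its antisense partner cannot be told apart.

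**Figure D2:**
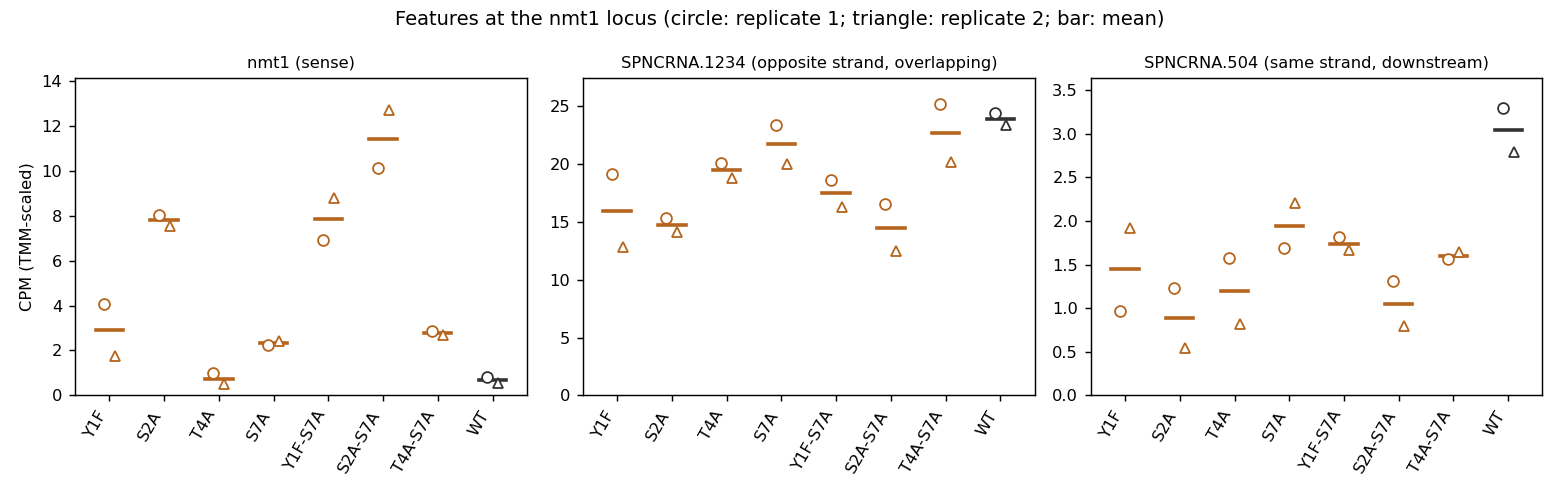
CPM (y axis, from 0) of nmt1, of SPNCRNA.1234 on the opposite strand and of SPNCRNA.504 downstream, in the 7 mutants (brown) and WT (black), with replicate 1 as a circle, replicate 2 as a triangle and the mean as a bar. In S2A-S7A nmt1 is at its highest, at 10.1 and 12.7 CPM, and both non-coding RNAs are below their WT values; SPNCRNA.504 is below WT in all 7 mutants.

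The features whose pattern was most like that of nmt1 over the 16 libraries were all non-coding RNAs, by Pearson's r of log2 CPM among the 5231 features whose log2 CPM averaged 3 or more. They were SPNCRNA.952 (r = 0.971), SPNCRNA.1613 (0.945), SPNCRNA.1529 (0.938), SPNCRNA.1212 (0.932) and SPNCRNA.1026 (0.93). SPNCRNA.952, for example, averaged 32.7 CPM in S2A-S7A, 27.6 in S2A, 21.3 in Y1F-S7A and 2.65 in T4A, against 2.08 in WT. The 16 points share strains in pairs and the same libraries, and r is given as a description. Over the 8 strain means, vps11 (r = 0.986) took the place of SPNCRNA.1212 among the first 5, and by Spearman's rho the first 5 were SPNCRNA.1033, SPNCRNA.1195, meu27, SPNCRNA.653 and pdc201, at 0.918 to 0.935. Among the other 7 genes, r with nmt1 was highest for bsu1 (0.722) and lowest for tnr3 (-0.873).

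**Figure D3:**
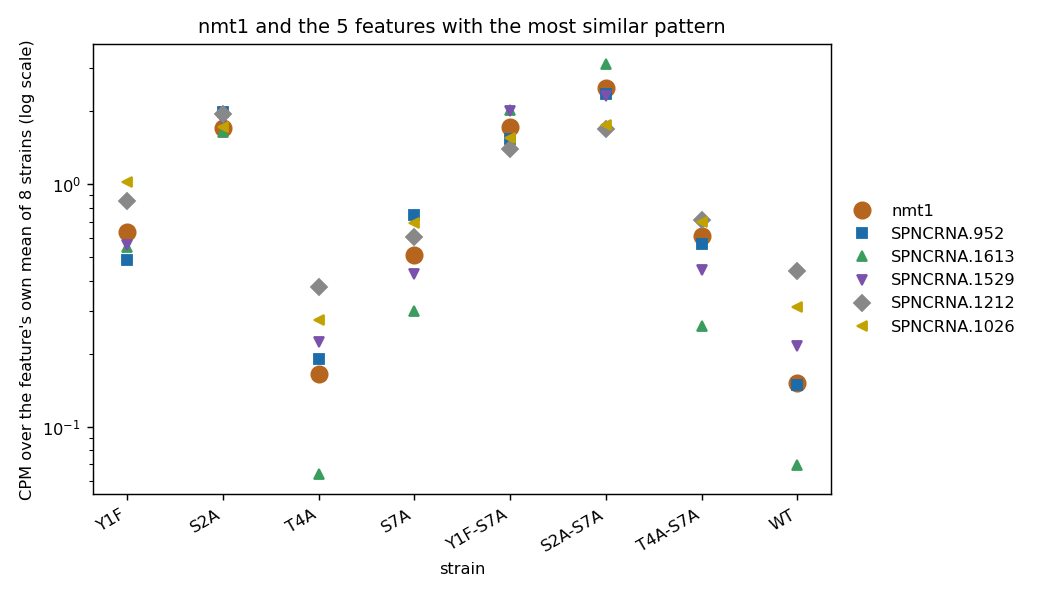
Mean CPM of nmt1 (large brown circles) and of the 5 features with the highest Pearson's r to it, in the 7 mutants and WT, each divided by its own mean over the 8 strains (y axis, log scale). All 6 are low in T4A and WT and high in S2A, Y1F-S7A and S2A-S7A.

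The other biosynthesis genes, nmt2 and thi4, were called in no comparison of a mutant with WT, with S7A or with its single-substitution parent by edgeR, with or without the block, or by DESeq2. In the joint test over the strains thi4 was called with the block, as given above. The gene nmt2 makes the thiazole moiety and thi4 joins and phosphorylates thiamine precursors. The level of nmt2 ran from 62.0 to 83.4 CPM over the 16 libraries, and strain means differed by at most 1.19-fold. In S2A-S7A nmt2 had 80.5 and 62.8 CPM, against 81.9 and 75.9 CPM in WT, and the ranges overlap. Its log2 fold change was -0.14, with a 95% interval of -0.47 to 0.19, which does not reach the change of nmt1 in that strain. Likewise thi4 ran from 77.4 to 107 CPM, with strain means within 1.21-fold. It had 96.3 and 106 CPM in S2A-S7A, against 86.0 and 95 CPM in WT, at a log2 fold change of 0.16 (95% interval -0.11 to 0.42). The thi4 feature is overlapped over 1322 bases on the opposite strand by cdb4.

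The gene tnr3 encodes thiamine pyrophosphokinase, which makes the diphosphate and acts as a negative regulator of the thiamine genes. It fell in the 3 strains in which nmt1 was highest, but was not called in Y1F or T4A-S7A, where nmt1 was. A link between the changes of these genes was not tested. The level of tnr3 was 34.6 and 38.0 CPM in S2A, 37.8 and 41.1 CPM in Y1F-S7A and 34.2 and 35.0 CPM in S2A-S7A, against 63.5 and 64.0 CPM in WT. The other 4 mutants had 50.3 to 64.2 CPM, so the libraries of these 3 strains lay below all others. From highest to lowest mean the order was WT, T4A, S7A, T4A-S7A, Y1F, Y1F-S7A, S2A and S2A-S7A, in which each neighbouring pair overlapped other than WT with T4A and Y1F with Y1F-S7A. Over WT tnr3 changed by -0.81 ± 0.14 log2 units in S2A (adjusted p = 0.0022) and -0.88 ± 0.14 in S2A-S7A (0.0014), both kept with any 1 library left out. It was -0.69 ± 0.14 in Y1F-S7A (adjusted p = 0.012), which was lost with each of the 4 libraries left out, at 0.056 to 0.089.

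Set against S7A, tnr3 also fell, by 0.73 on the log2 scale in S2A-S7A (adjusted p = 0.0046, but 0.061 and -0.54 without S7A replicate 2) and by 0.54 in Y1F-S7A (0.044). In Y1F-S7A that call was lost without S7A replicate 2 (adjusted p = 0.37, log2 fold change -0.35), Y1F-S7A replicate 1 (0.24) and Y1F-S7A replicate 2 (0.13). The S7A libraries themselves were apart, at 50.3 and 64.2 CPM. In Y1F-S7A over Y1F its log2 fold change was -0.49 (adjusted p = 0.34, 0.035 with the replicate block). In S2A-S7A over S2A it was -0.07 (95% interval -0.37 to 0.23). The tnr3 feature is overlapped over 1531 bases by rdi1 on the opposite strand, and rdi1 was not called in any mutant against WT, at log2 fold changes of -0.04 to 0.17.

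The transporter gene thi9, which encodes a thiamine permease, rose in 2 double mutants. It had 81.0 and 117 CPM in Y1F-S7A and 106 and 89.2 CPM in S2A-S7A, against 59.8 and 59.1 CPM in WT. All 4 of these libraries were above both of WT, with a wide gap between the Y1F-S7A replicates. Log2 fold changes over WT were 0.73 ± 0.18 in Y1F-S7A (adjusted p = 0.029) and 0.71 ± 0.18 in S2A-S7A (0.017). In Y1F-S7A the call did not survive leaving out Y1F-S7A replicate 2 (adjusted p = 0.24, log2 fold change 0.45), WT replicate 1 (0.12) or WT replicate 2 (0.15). In S2A-S7A it did not survive leaving out S2A-S7A replicate 1 (0.098), WT replicate 1 (0.081) or WT replicate 2 (0.098).

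In S7A thi9 had 86.4 and 83.0 CPM, also above WT, at a log2 fold change of 0.51 ± 0.18 (adjusted p = 0.23, 0.044 with the replicate block). In T4A-S7A it had 44.5 and 49.5 CPM, the lowest strain mean of the 8. This was a fall against S7A, at -0.85 ± 0.18 (adjusted p = 0.042; 1 of the 8 genes called, where 1.29% of all features were called and 0.981% were lower), which was lost with each of the 4 libraries left out at 0.17 to 0.23. Against T4A, with 59.2 and 61.3 CPM, the log2 fold change of T4A-S7A was -0.36 (adjusted p = 0.64). S7A went with a higher thi9 value in WT and a lower one in T4A, and the interaction of -0.87 ± 0.25 (95% interval -1.41 to -0.33) had an adjusted p of 0.58, or 0.092 with the block. Adding S7A to Y1F gave 0.86 ± 0.18 (adjusted p = 0.13, 0.011 with the replicate block). From highest to lowest mean the order was Y1F-S7A, S2A-S7A, S7A, S2A, T4A, WT, Y1F and T4A-S7A, in which the libraries of Y1F-S7A and S2A-S7A overlapped, and each of T4A, WT, Y1F and T4A-S7A overlapped its neighbour. The thi9 feature shares 337 bases with SPNCRNA.171 on its own strand, a feature of 0.542 to 1.56 CPM that was called in no mutant against WT, and is overlapped by SPNCRNA.743 on the other.

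The gene bsu1 encodes a transporter of vitamin B6 whose expression is likewise lowered by thiamine. It was called in no comparison with the quasi-likelihood test. It had 50.5 and 36.3 CPM in S2A-S7A and 41.8 and 39.9 CPM in Y1F-S7A, against 29.0 and 30.5 CPM in WT. Both strains lay above WT in both libraries, and the S2A-S7A replicates were 43.4 ± 10 CPM (mean ± SD, n = 2). In S2A-S7A the log2 fold change was 0.55 ± 0.20 (adjusted p = 0.092, 0.026 with the replicate block and 0.044 with DESeq2), and in Y1F-S7A it was 0.46 ± 0.20 (0.21). The lowest mean was in T4A, at 20.2 and 25 CPM, with a log2 fold change of -0.40 ± 0.20 (0.72).

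The phosphatase gene pho4 encodes a thiamine-repressible acid phosphatase and was called in no comparison by edgeR, with or without the block, or by DESeq2. It had 224 and 140 CPM in S2A-S7A, the widest pair of replicates, against 211 and 183 CPM in WT, and the ranges overlap. Its log2 fold change over WT lay between -0.17 in S2A and 0.10 in T4A and T4A-S7A. It carries TATATAAA 34 bases before its start as nmt2 does, and nearly where nmt1 does. Neither pho4 nor nmt2 was called in any strain in which nmt1 was, and a part of this motif in expression was not tested. At the 3′ end of pho4, 114 bases are shared with SPNCRNA.1358 on the opposite strand. SPNCRNA.1358 rose in Y1F-S7A over S7A, by 1.29 ± 0.21 on the log2 scale (adjusted p = 0.0042, 0.063 without S7A replicate 2), and in S2A-S7A over S7A, by 1.18 ± 0.21 (0.003), while pho4 differed there by 0.07 and -0.03.

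The gene thi1, which encodes the activator of the thiamine genes, varied little. It had 174 and 160 CPM in S2A and 184 and 144 CPM in S2A-S7A, against 198 and 209 CPM in WT, so the libraries of both strains were below those of WT. Its log2 fold change was -0.29 ± 0.13 in S2A (adjusted p = 0.21) and -0.31 ± 0.13 in S2A-S7A (0.14). With the replicate block these adjusted p values were 0.036 and 0.019. In the other 5 mutants the log2 fold change lay between -0.12 and 0.03.

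**Figure D4:**
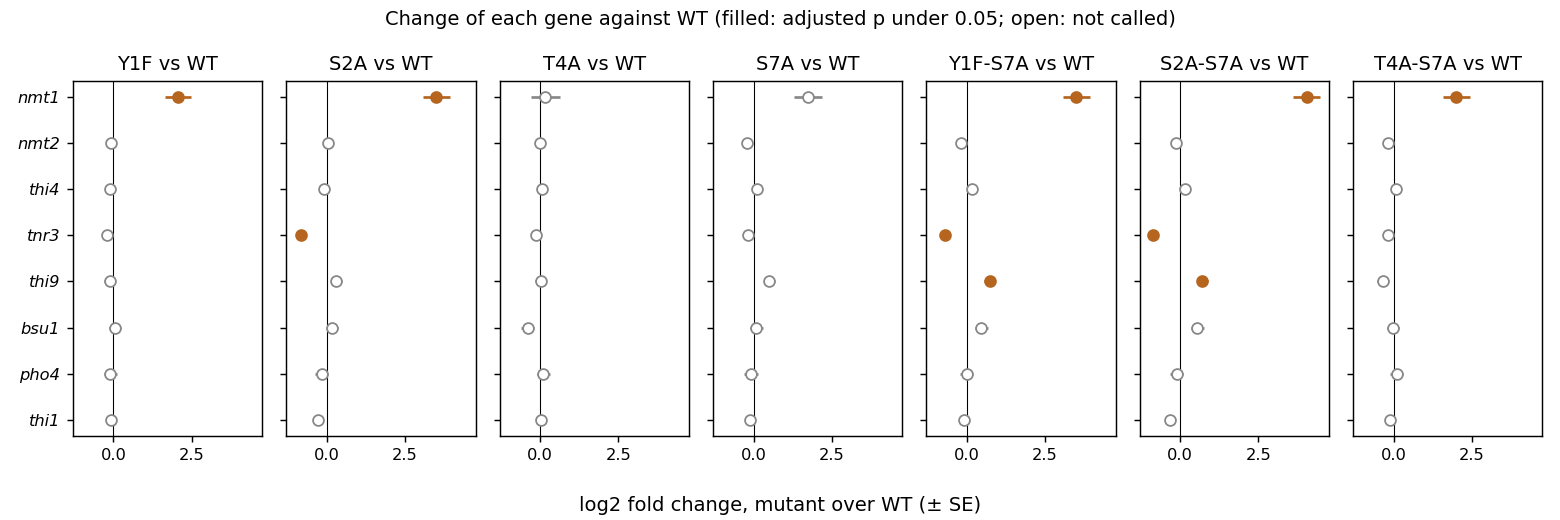
Log2 fold change of each of the 8 genes in each mutant over WT (x axis), with SE as bars that are often shorter than the symbol. Filled symbols have an adjusted p under 0.05: nmt1 in 5 mutants, tnr3 in S2A, Y1F-S7A and S2A-S7A, and thi9 in Y1F-S7A and S2A-S7A.

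Per length, nmt1 had the lowest mean of the 8 genes. That mean over the 16 libraries was 3.83 RPKM (CPM per kilobase of feature), higher than in 13.6% of tested features, and its highest library, in S2A-S7A, reached 10.7 RPKM, against 10 RPKM for tnr3 in the same library. The means of bsu1 (13.7 RPKM), tnr3 (14.4), thi9 (21.5), thi4 (26.8) and nmt2 (31.4) lay in between, and thi1 (69.7) and pho4 (104) were the most abundant. The widths that enter these values include the 5′ extensions given above.

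Other genes of the pathway were taken from product names in the reference annotation. Of 6 further thiamine genes (kinases of the pyrimidine branch, transporters and the factor gene thi5), 1 fell in S2A (11.9% of all features called), 1 rose in S2A-S7A (16.5%) and none was called in the other 5 mutants. The thiamine pyrophosphate transporter gene SPBC1604.04 fell by 0.84 on the log2 scale in S2A (adjusted p = 0.0058, but 0.077 without S2A replicate 1). SPCC794.03, a thiamine transporter gene, rose by 1.81 ± 0.50 in S2A-S7A (0.029, but up to 0.19 on leaving out S2A-S7A replicate 1 or WT replicate 2). Without WT replicate 1 its log2 fold change was 2.60, and over the 4 omissions it ran from 1.29 to 2.60. The median log2 fold change of the 6 was between -0.08 and 0.16 over the 7 mutants, near that of all features. With the replicate block the number called was 2 in S2A, Y1F-S7A and S2A-S7A and 1 in T4A-S7A.

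Of 12 genes of vitamin B6 uptake and metabolism, 1 rose in Y1F (2.96% of all features called), 1 fell in S2A (11.9%), 1 rose in Y1F-S7A (7.21%), and 1 rose and 2 fell in S2A-S7A (16.5%). With the replicate block 2 were higher and 1 lower in Y1F, 3 and 2 in S2A, 2 and 2 in Y1F-S7A, 2 and 4 in S2A-S7A, 0 and 1 in S7A and 1 and 1 in T4A-S7A. The pyridoxal reductase gene plr1 was among them in 5 strains, higher at a blocked adjusted p of 0.0018 to 0.0077. The oxidase gene SPBC725.03 had log2 fold changes of 0.79 in Y1F (adjusted p = 0.035), 0.69 in Y1F-S7A (0.039) and 0.79 in S2A-S7A (0.011), and SPCC965.13, a membrane transporter gene, -0.65 in S2A (0.0078) and -0.50 in S2A-S7A (0.026). The kinase gene SPCC18.10 had -0.40 in S2A-S7A (0.043). Each of these 6 calls was lost on leaving out at least 2 of its 4 libraries in turn, WT replicate 2 among them in every case. Of 9 genes of enzymes that need thiamine diphosphate, pdc201, a pyruvate decarboxylase gene, rose in every mutant but T4A, by 1.31 to 1.78 on the log2 scale (adjusted p = 0.0015 to 0.042); in T4A its value was 0.47 (0.81). With 1 library left out, all 4 fits kept the call in S2A and in S2A-S7A, none did in Y1F, S7A or T4A-S7A, at an adjusted p of up to 0.31, and in Y1F-S7A it was lost without WT replicate 2 (0.053). The lyase gene hac1 fell in Y1F-S7A (-0.61, adjusted p = 0.02, lost with each of the 4 libraries left out at up to 0.13) and S2A-S7A (-0.76, 0.0031), and the other 7 were called in no mutant. With the block pdc202 was also called, higher in S2A (0.78, adjusted p = 0.013). Without the block, the shares of all features called were 1.71% in S7A and 2.79% in T4A-S7A, beside those above. Of 4 genes whose product name contains acid phosphatase, pho1, the phosphate-repressed extracellular enzyme, was the one called, lower in S2A, T4A and T4A-S7A and higher in S7A and S2A-S7A. Its log2 fold change was -2.96 in T4A (adjusted p = 4.7e-05) and -3.56 in T4A-S7A (8.1e-06), strains in which pho4 was at 0.10. The pho1 calls in S2A (-0.83, 0.014), S7A (1.46, 0.0064) and S2A-S7A (0.78, 0.017) did not survive every omission: that in S2A was lost without S2A replicate 1, S2A replicate 2 or WT replicate 1 (up to 0.11), that in S7A without WT replicate 2 (0.058), and that in S2A-S7A without S2A-S7A replicate 1 or WT replicate 2 (up to 0.13). With the block pho1 was also lower in Y1F (-0.78, adjusted p = 0.0087) and Y1F-S7A (-0.58, 0.025). In S7A, SPBC409.18 (0.62, 0.0074) and SPBC4.06 (0.34, 0.047) were higher with the block. The product name of SPBC409.18 is phosphatidic acid phosphatase, so it entered the list by that wording.

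In the authors' deposited table, nmt1 had a log2 fold change over WT of 3.81 in S2A-S7A (adjusted p = 5.9e-12), 3.35 in Y1F-S7A (5.9e-08) and 3.27 in S2A (5.1e-09). It had 2.00 in T4A-S7A (adjusted p = 0.097) and 1.99 in Y1F (1) in the authors' deposited table. The authors' deposited table gave tnr3 -1.11 in S2A-S7A (adjusted p = 0.0072), -1.04 in S2A (0.0027), and -0.84 in Y1F-S7A (0.13). For thi9 the authors' deposited table had 0.58 in Y1F-S7A (adjusted p = 0.67) and 0.49 in S2A-S7A (0.49). Of the 10 calls against WT made here, 5 had an adjusted p under 0.05 in the authors' deposited table.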

How the data were processed

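Polyadenylated RNA was measured in 16 libraries of 8 strains, grouped by the strain label. The aligner was Bowtie 0.12.7, per the submitters' processing notes. Not given in the sources used here were the genome build, the annotation version and how features were counted. The authors deposited read counts per feature, which were the input of every test. They also deposited log2 RPKM values, and log2 fold changes (second strain over first) with adjusted p-values from DESeq (version not given), per the file headers. Coordinates are those of the deposited table. Of the 7022 features, 6844 were matched to the reference by locus tag, 23 by a synonym and 155 not at all. Of 5107 protein-coding features, 99.5% share a start or end with ASM294v3.

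The counts were fitted with edgeR 4.0.16 under R 4.3.3 (filterByExpr by strain, 6420 features, TMM factors of 0.9106 to 1.154, robust quasi-likelihood fit, 1 coefficient per strain, 8 residual degrees of freedom, biological coefficient of variation 19.3%). Tests were two-sided, with Benjamini-Hochberg adjustment over all tested features and a threshold of 0.05. The method was tested on simulated counts. Replicates varied beyond counting error (chi-square per degree of freedom 88.4 to 160). The p-values of the main fit rest on the spread between the replicates of a strain. That spread includes any shift shared by libraries of the same replicate number. Deviations of libraries with the same replicate number correlated at 0.245 to 0.667 in all 28 pairs of strains, so the numbers pair the samples by this check of the data; the labels do not say what a number shares. The block was an alternative, with RLE factors, no low-count filter, DESeq2 1.42.0, the strains compared alone, and each library left out in turn. RPKM was computed from the counts and the deposited widths.

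The 8 genes and the gene lists were chosen with earlier results of these data known. All 8 were named throughout. Added were the neighbours of each gene, up to 4 members of each list with the smallest adjusted p, of which those called are mostly given, and the 5 features most like nmt1.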

Additional observations from a re-analysis of the deposited data

How the results depend on the processing

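With RLE factors or without the low-count filter, the number of the 8 genes called was within 1.5 times the main number in all 17 comparisons. With the replicate block it became 2 in S7A, 5 in S2A-S7A, 2 in Y1F-S7A over Y1F, 1 in T4A-S7A over T4A and 5 in the joint test; the pairing ended no call, and beyond these and thi1 in S2A it added none. DESeq2 gave 1 in S7A, 2 in Y1F-S7A over Y1F and 1 in T4A-S7A over T4A. With only the strains compared in the fit, which leaves fewer libraries to estimate the spread, it was 0 in Y1F and T4A-S7A and 1 in Y1F-S7A against WT, and 0 in T4A-S7A and 1 in both other doubles against S7A. With each library left out in turn, where the lone replicate is assumed to vary like the other strains, the number was 2 to 2 in S2A, 0 to 1 in Y1F, 1 to 2 in Y1F-S7A, 2 to 3 in S2A-S7A and 0 to 0 in T4A-S7A against WT, 0 to 0 in T4A-S7A, 0 to 1 in Y1F-S7A and 1 to 2 in S2A-S7A against S7A, and 3 to 4 in the joint test. It was 0 in all other comparisons. Over all features, in S2A-S7A 1061 features were called, 2434 with the block, 1427 with DESeq2 and 335 with only the strains compared. The block called 520 features in S7A, 87 in Y1F-S7A over Y1F, 161 in T4A-S7A over T4A and 3719 in the joint test. Of the 24 pairs of a gene and a comparison called under at least 1 setting with all libraries, none changed direction. Of the other 104, 54 changed sign under some alternative, at main values of at most 0.31 on the log2 scale. The depth limits nmt1 most, since its WT libraries held 18 and 13 reads.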
